A study of Mus musculus with 23 samples.

Results

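The circadian clock genes of the mouse ileum were examined as 10 genes chosen by name: Arntl, Clock and Npas2 of the positive limb, Per1, Per2, Per3, Nr1d1 and Nr1d2 of the negative limb, and the output genes Dbp and Tef, of 24074 gene names with a probe in the value table. All probes that carry one of these names on the array were taken, which gave 25 probes, and 24 of them are among the 37161 probes of the authors' value table. The probe that is absent from the table, a second one for Per1, was well above background on 0 of 23 arrays. Each gene is given by its brightest probe, and the other probes are given where they bear on a result.

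The tissue came from 23 male mice, 1 array per mouse, and p-values therefore measure the spread between mice. Wild-type (WT) mice were C57BL/6J animals bought at 6 weeks of age. Pxr-/- mice, which lack the pregnane X receptor (PXR), were backcrossed to C57BL/6J and bred in house, and their age is not given. Genotype therefore cannot be told apart from breeding origin or from any difference in age. All mice had 2 weeks of acclimatization before treatment. Pregnenolone 16α-carbonitrile (PCN), a steroid ligand of mouse PXR, was injected in corn oil at 100 mg/kg on 4 days, and control mice (CONT) received the oil. There were 6 mice in WT CONT, 5 in WT PCN, 6 in Pxr-/- CONT and 6 in Pxr-/- PCN. The mice lived under 12 h of light per day and all were killed at zeitgeber time (ZT) 6, the count of hours from lights on, which was 6 h after the last injection. A single time of day was sampled, so each value is a level at ZT 6 and says nothing of amplitude or phase.

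The core clock is a feedback loop of transcription. ARNTL (also called BMAL1) pairs with CLOCK, or with its relative NPAS2, and the pair activates genes that carry an E-box, among them the Per genes, Nr1d1, Nr1d2, Dbp and Tef. PER proteins accumulate and inhibit the pair, whereas NR1D1 and NR1D2 (REV-ERB alpha and beta) are nuclear receptors that repress Arntl in a second loop through RORE elements. DBP and TEF are PAR-domain bZIP factors that bind D-boxes and pass the rhythm on to output genes, including genes of xenobiotic metabolism. In tissues such as liver and gut, Arntl is known to run in antiphase to the Per, Nr1d and Dbp transcripts.

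Promoter sequences are shown for Arntl, Per1, Per3 and Tef, whose windows held one of these elements. The windows are RefSeq sequences from 250 bases before to 50 bases after a transcription start, and 9 of the 10 genes matched an entry. The motifs searched on both strands were CACGTG (E-box), TTATGTAA or TTACGTAA (D-box) and TAGGTCA (the core of a RORE), which do not overlap one another in the windows printed. They are in capitals.
Arntl promoter, chr7:113207261-113207560, GRCm38.p6, plus strand: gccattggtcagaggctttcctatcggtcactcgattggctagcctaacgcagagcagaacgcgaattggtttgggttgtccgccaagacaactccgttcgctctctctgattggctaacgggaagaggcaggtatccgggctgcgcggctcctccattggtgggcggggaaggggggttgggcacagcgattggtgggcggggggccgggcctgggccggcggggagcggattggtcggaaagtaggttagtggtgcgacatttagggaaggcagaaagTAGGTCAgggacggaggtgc
Per1 promoter, chr11:69098699-69098998, GRCm38.p6, plus strand: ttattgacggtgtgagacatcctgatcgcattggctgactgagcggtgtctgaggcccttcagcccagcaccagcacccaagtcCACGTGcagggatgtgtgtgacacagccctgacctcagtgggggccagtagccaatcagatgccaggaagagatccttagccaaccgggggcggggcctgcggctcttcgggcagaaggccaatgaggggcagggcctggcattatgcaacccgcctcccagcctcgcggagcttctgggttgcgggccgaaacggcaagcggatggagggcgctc
Per3 promoter, chr4:151044616-151044915, GRCm38.p6, minus strand: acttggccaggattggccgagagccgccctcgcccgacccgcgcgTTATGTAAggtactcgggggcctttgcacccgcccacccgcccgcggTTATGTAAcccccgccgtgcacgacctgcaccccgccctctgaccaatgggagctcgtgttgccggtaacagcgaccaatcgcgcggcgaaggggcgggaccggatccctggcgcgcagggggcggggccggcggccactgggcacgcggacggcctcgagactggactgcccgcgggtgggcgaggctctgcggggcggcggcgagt
Tef promoter, chr15:81802423-81802722, GRCm38.p6, plus strand: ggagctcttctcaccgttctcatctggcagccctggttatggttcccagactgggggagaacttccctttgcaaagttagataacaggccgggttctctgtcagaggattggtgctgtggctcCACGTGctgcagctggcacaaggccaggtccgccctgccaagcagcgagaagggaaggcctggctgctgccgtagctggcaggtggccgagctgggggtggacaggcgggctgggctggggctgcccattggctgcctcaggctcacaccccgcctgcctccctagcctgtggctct
The Per3 window held a D-box at -205 and another at -158, which is 2 matches, whereas 1.06% of 32851 promoter windows of the same length held any. The printed Per1 window held an E-box at -166, whereas a further Per1 window held none of the motifs. The printed Tef window held an E-box at -127, with a further E-box at -138 in a second Tef window. An E-box was held by 7.15% of all windows. The second of 2 overlapping Arntl windows held TAGGTCA at 30, counted from the start, beside 2.61% of all windows. None of these letters was found in the windows of Clock, Npas2, Nr1d1, Nr1d2 or Dbp. A match is a description of the letters only.

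The arrays were alike in quality, with a median spot signal of 74 to 106.5 on the linear scale and 60.9% to 67.3% of probes well above background. No member probe was saturated on any array. The probe for Nr1i2, the gene that encodes PXR, read 12.14 ± 0.16 (SD, n = 6) in WT CONT and 11.73 ± 0.36 (n = 6) in Pxr-/- CONT as log2 values with overlapping ranges, so it does not check the genotype labels. All 6 enterocyte markers, among them the ileal bile acid genes Fabp6 and Slc10a2, were above background on at least 1 array. Arrays WT CONT replicate 4 and WT CONT replicate 6 stood apart from the other WT CONT arrays for several members, and the changes in WT mice are also given without each of them where they move.

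PCN was compared with oil in WT mice to see whether the ligand changed the clock transcripts in mice with the receptor at ZT 6. A gene counted as called where limma gave a fold change above 1.5 together with an adjusted p no higher than 0.05, with Benjamini-Hochberg adjustment over the 37161 probes of the table. No member was called (0 of 10, where 0.692% of all probes were), and 0 of 10 had an unadjusted p under 0.05. For unadjusted p-values the share over all probes was not counted, in this contrast or in those below. The adjusted p ranged from 0.51 to 0.974. Over all 24 probes of the members, 0 were called and 2 had an unadjusted p under 0.05, which were the third probe of Per3 (0.39, SE 0.147, adjusted p 0.251) and the third of Nr1d2 (0.29, SE 0.123, adjusted p 0.325).

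In the positive limb, Arntl had log2 values from 8.52 to 9.87 with a median of 8.76 in WT CONT. The 5 WT PCN mice read 8.37, 8.49, 8.76, 9.19 and 9.22. The ranges overlapped, with 2 PCN mice under all controls, and the change was -0.19 on the log2 scale (SE 0.241, 95% interval -0.69 to 0.31, adjusted p 0.828). The highest WT CONT value, 9.87, came from replicate 4, and without that mouse the change was 0.00. Clock, the partner of ARNTL, changed by 0.02 (SE 0.106), and Npas2, which can take the place of CLOCK, by -0.31 (SE 0.193, adjusted p 0.578), with 5 of 5 WT PCN mice under the WT CONT mean.

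In the negative limb, Per1 read 10.34 to 12.16 in WT CONT with a median of 11.49, and 11.54, 11.78, 11.81, 11.90 and 11.94 in WT PCN. All 5 PCN mice lay over the control mean, but none lay over the highest control, and the change was 0.48 (SE 0.302, adjusted p 0.583). Per1 is also a known glucocorticoid target. Per2 changed by 0.18 (SE 0.298), a value that became -0.11 without WT CONT replicate 4, and Per3 by 0.33 (SE 0.191, adjusted p 0.533). The REV-ERB genes had opposite signs, with -0.36 (SE 0.204, adjusted p 0.51) for Nr1d1 and 0.23 (SE 0.132, adjusted p 0.533) for Nr1d2. Of the output genes, Dbp changed by -0.19 (SE 0.242) and Tef by 0.31 (SE 0.175, adjusted p 0.523). Without WT CONT replicate 4 the changes were 0.26 for Per1, 0.18 for Per3, 0.15 for Nr1d2, 0.15 for Tef and -0.39 for Dbp. Without WT CONT replicate 6 they were -0.09 for Arntl, 0.13 for Nr1d2 and -0.31 for Dbp, and no member was called without either mouse.

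The 95% intervals in WT mice bound what these 11 arrays could have missed. For 8 of 10 members the interval held changes over 1.5-fold. The farthest reaches were 1.1 for Per1, 0.80 for Per2 and -0.79 for Nr1d1, and that of Arntl reached -0.69. The interval of Clock ran from -0.20 to 0.24, and that of Nr1d2 from -0.05 to 0.50, both inside the fold threshold of 0.58 on the log2 scale.

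**Figure D1:**
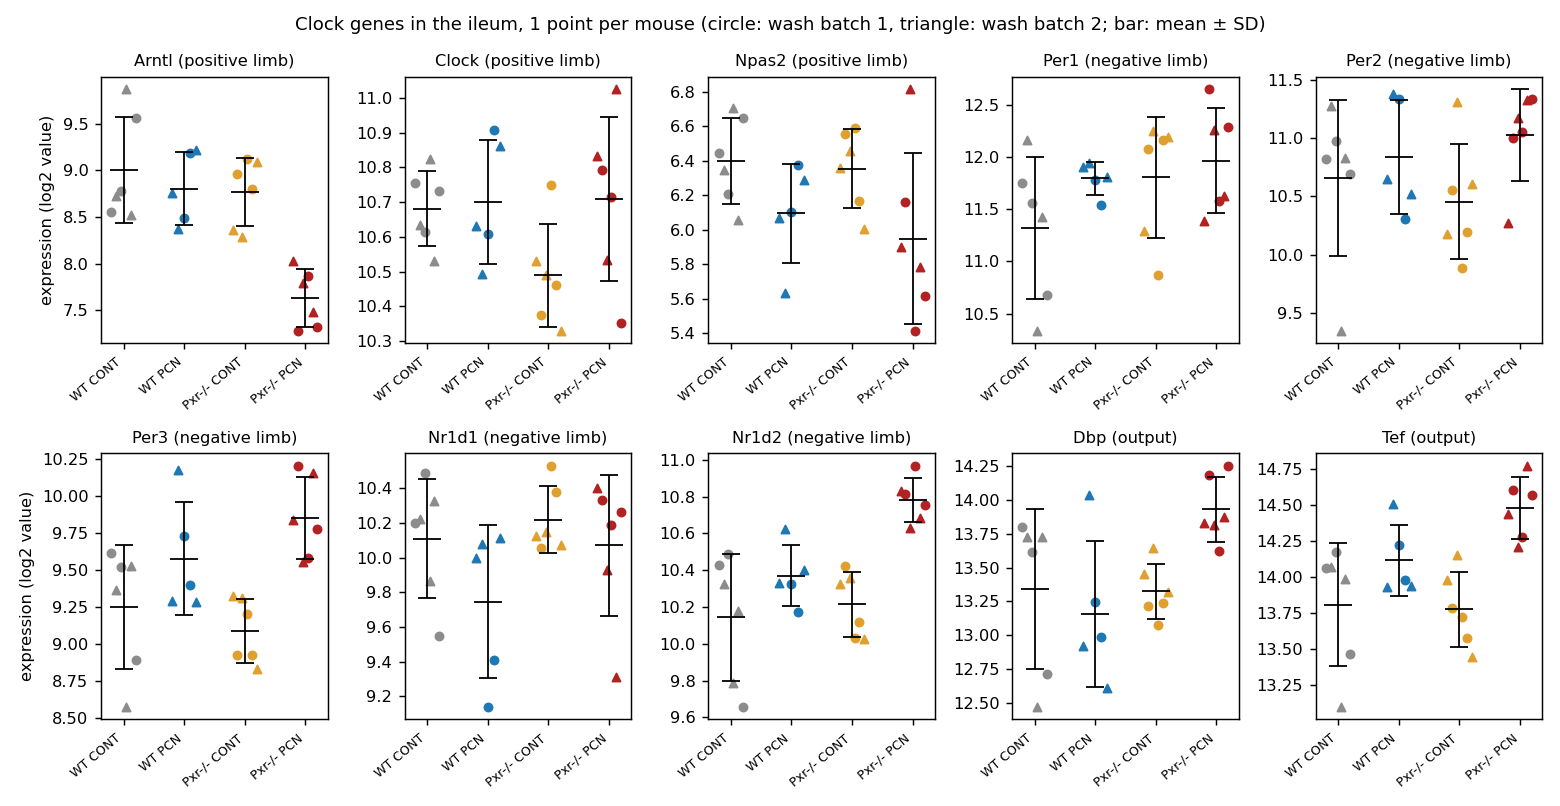
Log2 expression value (vertical axis, a separate scale for each gene) of the 10 clock genes in the 4 groups, with 1 point per mouse, circles for wash batch 1, triangles for wash batch 2, and bars for the mean ± SD. The 6 Pxr-/- PCN mice lie between 7.28 and 8.03 for Arntl, under all 6 Pxr-/- CONT mice, and above all of them for Per3, Nr1d2 and Tef.

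In Pxr-/- mice, which lack the receptor, PCN lowered Arntl 2.20-fold and raised Per3 1.70-fold and Tef 1.63-fold. PCN left no overlap with the oil group for Arntl, Per3, Nr1d2 and Tef, which is 4 of 10 members beside 2.67% of all probes. The members called were 3 of 10, 1 lower and 2 higher, where 0.947% of all probes were called (0.223% lower and 0.724% higher). Nr1d2 passed the adjusted p but fell just short of the fold threshold. At an adjusted p of at most 0.05 with no fold threshold, 4 of 10 members passed, beside 3.7% of all probes. An unadjusted p under 0.05 was found for 7 of 10, among them Clock (p 0.0411, adjusted p 0.233). That gap shows that such unadjusted p-values were common among all probes, so the 7 of 10 cannot be set against 5%. The median change was -0.41 over the 3 positive-limb genes, 0.57 over the 5 negative-limb genes and 0.65 over both output genes, beside -0.01 over all probes. The positive-limb median was the value of Npas2, which was not called, and Clock of that limb changed by 0.22. In WT mice the medians had the same signs, with -0.19, 0.23 and 0.06, beside -0.01 over all probes. In whole tissue, fewer cells of a type and less RNA per cell cannot be told apart.

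Arntl, whose protein pairs with CLOCK to activate genes with an E-box, read 8.28 to 9.12 in Pxr-/- CONT with a median of 8.88. In Pxr-/- PCN it read 7.28 to 8.03 with a median of 7.64. All 6 PCN mice lay under all 6 controls, and also under all mice of both WT groups. The change was -1.14 (SE 0.229, 95% interval -1.61 to -0.66, adjusted p 0.00892). Leaving out any single array kept it between -1.24 and -1.06, with an adjusted p of at most 0.025.

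The fall of Arntl was measured by 3 probes in separate stretches of the gene, and they are printed because the result does not rest on a single one.
Arntl probe A_52_P267651, chr7:120456978-120457037, mm9, plus strand: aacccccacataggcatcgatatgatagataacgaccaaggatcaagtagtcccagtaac
Arntl probe A_55_P2735445, chr7:120439030-120439089, mm9, plus strand: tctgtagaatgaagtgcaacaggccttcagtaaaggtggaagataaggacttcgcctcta
Arntl probe A_66_P127371, chr7:120435023-120436706, mm9, plus strand: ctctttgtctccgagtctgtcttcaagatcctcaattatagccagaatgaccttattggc
The second probe fell by 1.23 (SE 0.214, adjusted p 0.00346) and the last fell by 0.89 (SE 0.198, adjusted p 0.0161), with 6 of 6 PCN mice under the control mean for each. The last probe is placed over more genome than its 60 bases. In WT mice the same probes changed by -0.05 and -0.25, with adjusted p of 0.968 and 0.707.

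Neither of the ARNTL partners passed the test in Pxr-/- mice. Clock read 10.33 to 10.75 in controls and 10.35 to 11.02 with PCN, a change of 0.22 (SE 0.101, adjusted p 0.233), and its other 3 probes changed by 0.01, -0.06 and -0.01, the last of which was above background on 11 of 23 arrays. Npas2 read 6.00 to 6.59 in controls and 5.42 to 6.81 with PCN, and changed by -0.41 (SE 0.183, adjusted p 0.221). Its highest PCN value came from Pxr-/- PCN replicate 3, and without that mouse the change was -0.59 with an adjusted p of 0.0343.

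Among the Per genes, Per3 moved with PCN. It read 8.83 to 9.32 with a median of 9.07 in Pxr-/- CONT and 9.56 to 10.21 with a median of 9.81 in Pxr-/- PCN, without overlap. The change was 0.76 (SE 0.182, 95% interval 0.39 to 1.14, adjusted p 0.022). Its second probe rose by 0.77 (SE 0.16, adjusted p 0.0102), and the other gave 0.57 (SE 0.14, adjusted p 0.0267), just under the fold threshold. The call ended without Pxr-/- CONT replicate 6 (0.71, adjusted p 0.054), without Pxr-/- PCN replicate 2 (0.69, adjusted p 0.0519) and without Pxr-/- PCN replicate 5 (0.70, adjusted p 0.0632).

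The PER1 and PER2 proteins are among the inhibitors of the ARNTL and CLOCK pair. Per2 read 9.89 to 11.31 in Pxr-/- CONT and 10.27 to 11.33 in Pxr-/- PCN, with medians of 10.38 and 11.11, and the change of 0.57 did not pass the test (SE 0.284, 95% interval -0.02 to 1.16, adjusted p 0.273). A second, dimmer probe of Per2 gave 0.05 (SE 0.113). Per1 had medians of 12.12 and 11.94 and changed by 0.16 (SE 0.287, adjusted p 0.802). The groups overlapped for both genes.

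The REV-ERB genes differed in their values. Nr1d2 read 10.02 to 10.42 with a median of 10.22 in Pxr-/- CONT and 10.63 to 10.97 with a median of 10.78 in Pxr-/- PCN, without overlap. Its brightest probe gave 0.57 (SE 0.125, 95% interval 0.31 to 0.83, adjusted p 0.0154), its second probe was called at 0.59 (SE 0.11, adjusted p 0.00574), and the other gave 0.58 (SE 0.117, adjusted p 0.00899). All 3 probes therefore lay at the fold threshold of 0.58, and leaving out single arrays moved the brightest from 0.53 to 0.61. Nr1d1 had overlapping values of 10.06 to 10.53 and 9.31 to 10.40, and changed by -0.15 (SE 0.194, 95% interval -0.55 to 0.25, adjusted p 0.718). The difference between Nr1d1 and Nr1d2 was not tested.

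Of the output genes, Tef rose. It read 13.45 to 14.16 with a median of 13.75 in Pxr-/- CONT and 14.21 to 14.77 with a median of 14.51 in Pxr-/- PCN. The groups did not overlap, and the change was 0.70 (SE 0.166, 95% interval 0.36 to 1.05, adjusted p 0.0217). Its second probe was called at 0.60 (adjusted p 0.0407), and the other 2 gave 0.50 each (adjusted p 0.0915 and 0.0462) and lay under the fold threshold. The call of the brightest probe ended without Pxr-/- CONT replicate 6 (0.63, adjusted p 0.0559) and without Pxr-/- PCN replicate 5 (0.64, adjusted p 0.0623).

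Dbp, the bZIP factor with a large rhythm in many tissues, read 13.07 to 13.64 in Pxr-/- CONT and 13.62 to 14.26 in Pxr-/- PCN. Only the lowest PCN mouse fell within the control range. The change was 0.61 (SE 0.23, 95% interval 0.13 to 1.08, adjusted p 0.142), and the second probe gave 0.70 (SE 0.233, adjusted p 0.0932). With only the groups of this contrast in the model, the adjusted p was 0.0311. The spread of Dbp was larger in the WT groups, with SDs of 0.59 and 0.54, than in the Pxr-/- groups, with 0.20 and 0.24, and the difference in spread was not tested.

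Within each wash batch alone, with 3 mice per group, the called members kept their direction but did not pass the test. Arntl changed by -1.47 in batch 1 (adjusted p 0.172) and by -0.81 in batch 2 (adjusted p 0.251). Per3 changed by 0.83 and 0.69 (adjusted p 0.358 and 0.244), and Tef by 0.79 and 0.61 (adjusted p 0.271 and 0.276).

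**Figure D2:**
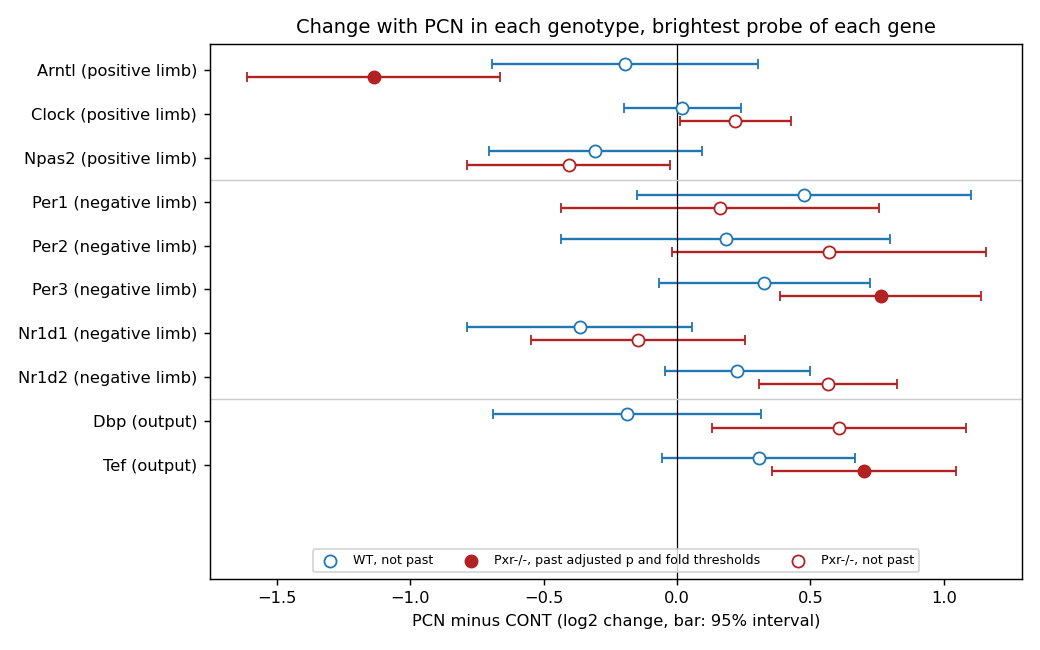
Log2 change with PCN (horizontal axis, PCN minus CONT, bars for the 95% interval) of each clock gene in WT mice in blue and Pxr-/- mice in red, ordered by role. Filled points passed both thresholds, and these are Arntl at -1.14, Per3 at 0.76 and Tef at 0.70 in Pxr-/- mice.

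Whether PCN acted differently in the genotypes was tested as the interaction, the change in Pxr-/- mice minus that in WT mice. No member was called (0 of 10, where 0.078% of all probes were), and 2 of 10 had an unadjusted p under 0.05. These were Arntl, with a difference of -0.94 (SE 0.333, 95% interval -1.63 to -0.25, adjusted p 0.879), and Dbp, with 0.80 (SE 0.334, 95% interval 0.10 to 1.49). The other probes of Arntl gave differences of -1.18 (adjusted p 0.338) and -0.64, and 0 of the 24 probes were called. The calls in Pxr-/- mice alone therefore do not show that the genotypes differed in their response. The median difference was -0.10 for the positive limb, 0.34 for the negative limb and 0.60 for the output genes, beside 0.00 for all probes.

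Averaged over the genotypes, PCN lowered Arntl by a change of -0.67 (SE 0.166, 95% interval -1.01 to -0.32, adjusted p 0.015), the 1 member called of 10, where 0.939% of all probes were. Its other probes gave -0.64 (adjusted p 0.0123), which was called, and -0.57 (adjusted p 0.016), under the fold threshold. Without WT CONT replicate 4 the change of the brightest was -0.57. Nr1d2 (0.40, SE 0.0909, adjusted p 0.00867), Per3 (0.55, SE 0.132, adjusted p 0.0121) and Tef (0.50, SE 0.121, adjusted p 0.0115) passed the adjusted p alone. That made 4 of 10 members past the adjusted p, beside 9.02% of all probes.

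Without PCN, no clock gene differed between the genotypes past the thresholds (0 of 10, where 0.148% of all probes were called), and 0 of 10 had an unadjusted p under 0.05. The differences, Pxr-/- CONT minus WT CONT, ran from -0.23 for Arntl (SE 0.229, adjusted p 0.863) to 0.49 for Per1 (SE 0.287, adjusted p 0.689). Under PCN, Arntl was lower in Pxr-/- mice by a difference of -1.18 (SE 0.241, 95% interval -1.68 to -0.68, adjusted p 0.0184), and it was the 1 member of 10 called, where 0.366% of all probes were. The second probe of Arntl was called at -1.05 (adjusted p 0.0265) with overlapping groups, and the last gave -0.74 (adjusted p 0.168) and was not called. The call of the brightest ended without WT PCN replicate 4 (-1.07, adjusted p 0.0676), without WT PCN replicate 5 (-1.07, adjusted p 0.0692) and with slide as a fixed block (-1.13, adjusted p 0.0687). Dbp was 0.78 higher (SE 0.242, adjusted p 0.255), and without WT PCN replicate 2, the WT PCN mouse with the highest Dbp, it was 0.99 higher (adjusted p 0.0489). The contrasts that hold Pxr-/- PCN share those 6 arrays and are not independent of one another.

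The members also varied together from mouse to mouse inside the groups. Each value was taken relative to its group mean, and the 45 pairs of members were correlated over 23 mice, with permutation of mice within groups and Benjamini-Hochberg adjustment over the pairs. 21 pairs had an adjusted p of at most 0.05, 12 with r above 0 and 9 with r below 0, and 18 of the 21 also passed by Spearman's rho. Over all 23 mice the pairs sorted by role. All 21 pairs of a positive-limb gene with a negative-limb or output gene had r below 0, and 9 of them passed. Signs were less stable among those that did not pass. Without the 2 mice farthest from the median of the first gene, r was 0.03 for Arntl with Nr1d1 and 0.05 for Clock with Nr1d1. In wash batch 1 it was 0.14 for Clock with Per3 and 0.20 for Npas2 with Per3. Inside Pxr-/- CONT it was 0.81 for Clock with Nr1d1. Of the 21 pairs among negative-limb and output genes, 20 had r above 0, and 12 passed. The 3 pairs within the positive limb had r from 0.31 to 0.39, and none passed.

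Mice with more Arntl had less Dbp. For this pair r was -0.882 (rho -0.88, permutation p 1e-05 for each, the smallest that 100000 resamples can give, adjusted p 0.000225 for each). Without the 2 mice farthest from the median of Arntl, r was -0.818, and within wash batches 1 and 2 it was -0.938 (n = 11) and -0.848 (n = 12). Arntl against Tef gave r of -0.867 (rho -0.787, permutation p 4e-05 and 0.0002, adjusted p 0.0006 and 0.00202), and Arntl against Per3 gave -0.83 (rho -0.791, permutation p 8e-05 for each, adjusted p 0.00072 and 0.0012). The inverse relation of Arntl to Dbp was therefore present in both batches and did not rest on the 2 extreme mice.

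Per3 and Tef gave the highest r, 0.925 (rho 0.89, permutation p 1e-05 for each, adjusted p 0.000225 for each). It was 0.894 without the 2 mice farthest from the median and 0.851 and 0.952 within the batches. Per3 also varied with Dbp, with r of 0.855 (rho 0.815, permutation p 0.00017 and 0.00027, adjusted p 0.00127 and 0.00202). Dbp and Tef had r of 0.847 (rho 0.802, permutation p 7e-05 and 0.00024, adjusted p 0.00072 and 0.00202). Nr1d1 stood outside most of these relations, and passed with Nr1d2 alone (r 0.511, rho 0.468, permutation p 0.0136 and 0.033, adjusted p 0.0305 and 0.0674).

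The 21 pairs that passed all kept their sign in both wash batches and without the 2 mice farthest from the median of the pair's first gene. Inside single groups of 5 or 6 mice, 16 of the 21 had the same sign in all 4 groups. The other 5 all held Nr1d2. In Pxr-/- PCN, r was 0.28 for Arntl with Nr1d2, -0.28 for Nr1d2 with Dbp, -0.19 for Nr1d2 with Tef and -0.13 for Per3 with Nr1d2, and in Pxr-/- CONT it was -0.58 for Nr1d1 with Nr1d2. Inside a single batch 0 pairs passed the adjusted p. Permutation within groups of 2 or 3 mice per batch allows few arrangements, which limits how small p can be. That count therefore cannot tell whether a pair held within a batch. WT CONT replicate 4 and replicate 6 had the highest Arntl values of their group, 9.87 and 9.56, and its lowest Dbp values, 12.47 and 12.72. These mice were in different wash batches, and 63.0% and 62.2% of probes on their arrays were above background, inside the range of the others.

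**Figure D3:**
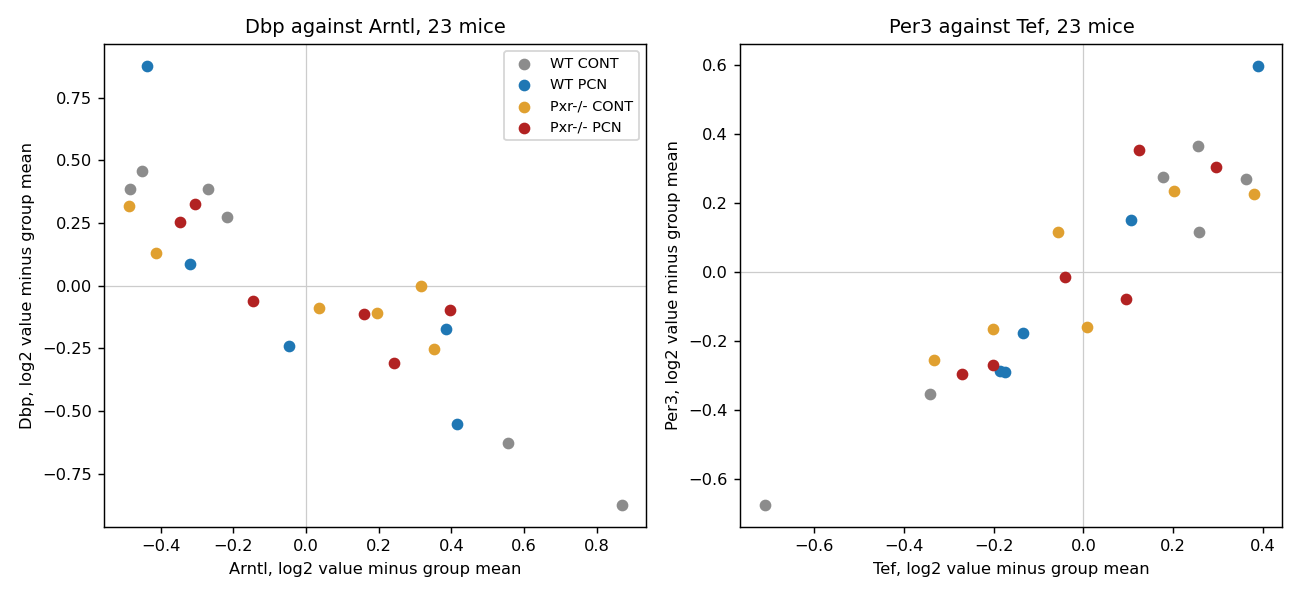
Log2 values minus the group mean for 23 mice, coloured by group, with Dbp against Arntl on the left (r -0.882) and Per3 against Tef on the right (r 0.925). The points fall along a line in each panel, and the grey point at the end of the left line is WT CONT replicate 4.

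**Figure D4:**
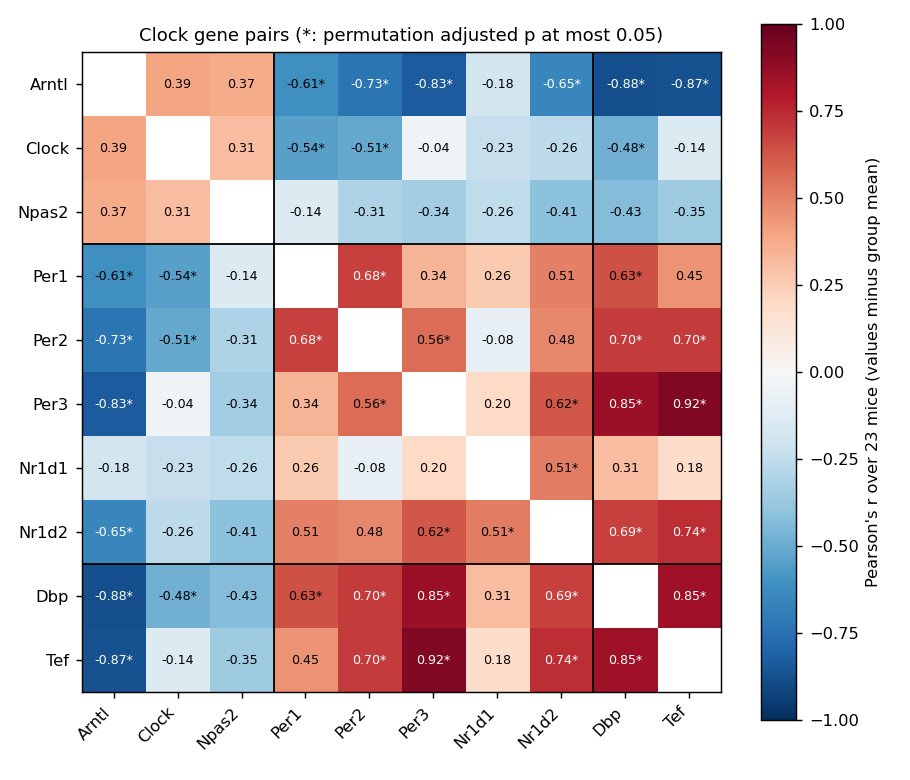
Pearson's r for the 45 pairs of clock genes over 23 mice, from values minus the group mean, with blue below 0 and red above 0, an asterisk for an adjusted p of at most 0.05, and lines between positive limb, negative limb and output genes. The block that joins the positive limb to the other genes is blue throughout, with 9 asterisks, and the block among the other genes holds 12.

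Outside the members, the genes whose values, minus group mean and wash batch, followed Arntl most closely over 23 arrays were Slc4a5 (r 0.807), Maml1 (r 0.803) and Neil2 (r 0.799), of 15861 genes compared. Those closest to Dbp were Apoa2 (r 0.809), Slc20a1 (r 0.771) and Spatc1l (r 0.756). All these values share their arrays, and genes are not independent replicates. Picking the highest r of 15861 genes favours large values, and no test was run on these r.

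A second list of 20 clock and clock-controlled genes, of which 19 had a probe, was given beside the members. In each genotype 1 of 19 was called higher and 0 lower, where 223 (WT) and 269 (Pxr-/-) of 37161 probes were called higher. That gene was Tspan4, a tetraspanin, which rose by 0.59 in WT mice (SE 0.134, adjusted p 0.0252) and by 0.85 in Pxr-/- mice (SE 0.128, adjusted p 0.000998). The median change of the list was 0.09 in WT and 0.13 in Pxr-/- mice. Ciart, a repressor of the ARNTL and CLOCK pair, gave 0.78 in Pxr-/- mice (SE 0.23, adjusted p 0.059), and Cry2, a partner of the PER proteins, gave 0.48 (SE 0.157, adjusted p 0.0876). Others of the list went the other way in these mice, among them Cry1 (-0.26, SE 0.151, adjusted p 0.347), Nfil3 (-0.21) and Bhlhe41 (-0.13). Of the 19 genes, 14 had changes above 0 in Pxr-/- mice and 15 in WT mice.

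Because Per1 answers to glucocorticoids, 5 glucocorticoid-responsive genes were set beside it. Fkbp5, a co-chaperone of the glucocorticoid receptor, rose by 1.24 in WT mice (SE 0.217, adjusted p 0.00276) and by 0.85 in Pxr-/- mice (SE 0.206, adjusted p 0.0238). Tsc22d3, Sgk1, Zbtb16 and Klf9 did not pass the test in either genotype, with changes of 0.09 to 0.49 in WT and 0.02 to 0.15 in Pxr-/- mice. The part of glucocorticoid signalling in the Per1 values was not tested.

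Markers of other cell types moved with PCN in both genotypes. In Pxr-/- mice 3 of 6 fibroblast markers, 2 of 10 smooth muscle markers, 1 of 6 macrophage markers and 3 of 6 neutrophil markers were called higher. The share of all probes called higher in these mice was 0.724%. In WT mice, where 0 of 10 clock genes were called, the count was 1 of 6 for fibroblasts (Lum, 0.70) and 2 of 6 for neutrophils, with 0 for smooth muscle and macrophages. Over all probes, 223 of 37161 were called higher in WT mice. No marker of enterocytes, B cells, T cells, adipocytes, enteric neurons or proliferating crypt cells was called in either genotype. All 5 crypt markers had changes below 0 in both, with a median of -0.21 in WT and -0.35 in Pxr-/- mice, and the 7 B cell markers had a median change of 1.42 in WT and 0.47 in Pxr-/- mice. The B cell markers were uneven among the treated mice. Summed per mouse, as log2 values, they reached 13.74 in the highest WT PCN mouse, whereas the WT PCN median was 11.21. The lowest WT PCN mouse, at 10.97, lay under the highest WT CONT mouse, at 11.12, and the WT CONT median was 10.87. The Pxr-/- groups also overlapped, with medians of 10.97 for oil and 11.26 for PCN.

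The neutrophil markers that rose were S100a8 and S100a9, the subunits of calprotectin, by 1.63 and 2.16 in WT mice (adjusted p 0.0398 and 0.0162) and by 2.56 and 2.90 in Pxr-/- mice (adjusted p 0.00091 and 0.00108). Retnlg rose by 1.35 in Pxr-/- mice (adjusted p 0.0184) and gave 0.72 in WT mice (adjusted p 0.375). Csf3r, whose probe carries most of the summed neutrophil level, gave 0.03 and -0.06. With all 6 markers the sum, as a log2 value, ran from 15.16 to 15.63 in Pxr-/- CONT and from 15.39 to 15.59 in Pxr-/- PCN. In WT mice that sum ran from 15.22 to 15.61 with oil and from 15.32 to 15.69 with PCN, so both genotypes overlapped. Without Csf3r, a choice made after its values were seen, the sum ran from 8.66 to 9.37 and from 9.81 to 12.49 in Pxr-/- mice. In WT mice it ran from 8.33 to 9.09 and from 9.63 to 11.02. Leaving out a marker that did not rise favours such a gap, so these ranges are a description only. Of the 6 markers, 5 had changes above 0 in WT and 4 in Pxr-/- mice.

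The summed fibroblast level ran from 15.05 to 15.88 in Pxr-/- CONT and from 15.74 to 16.57 in Pxr-/- PCN. That of smooth muscle ran from 18.12 to 18.65 and from 18.35 to 19.04, and that of macrophages from 13.19 to 13.70 and from 13.62 to 13.87. The enterocyte level ran from 19.29 to 19.58 and from 19.13 to 19.33, and that of crypt cells from 13.26 to 14.00 and from 13.11 to 13.57. These 5 ranges overlapped between the groups. In WT mice the fibroblast level ran from 15.42 to 15.77 with oil and from 15.30 to 16.49 with PCN. No marker of these lists was at background on all arrays, and the part of cell composition in the clock values was not tested.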

How the data were processed

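Ileal RNA from 23 mice was hybridised to single-colour Agilent arrays, Cy3-labelled from 150 ng of total RNA, in 2 wash batches of 11 and 12 arrays. Scanner files are intensity values per the file headers (Agilent Feature Extraction 10.10.1.1). The main values are the log2 table deposited by the authors, whose methods name a filter on median signal, log2 scale, wash batch correction and CrossNorm. Neither the rule of that filter nor how arrays were grouped for CrossNorm is given in the sources used here. All its columns, when checked, held the same set of values, and their Spearman correlation with the scanner signal was 0.9995 to 0.9997 across probes. Since the authors had corrected for batch before deposit, wash batch was also kept as a term here.

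limma 3.58.1 in R 4.3.3 fitted the 4 groups and the wash batch to all 37161 probes and 23 arrays (eBayes, 2-sided, Benjamini-Hochberg), and the fit was tested on simulated data. Arrays have no read depth, and the number of mice limits the precision. The median SE over all probes was 0.102 on the log2 scale for PCN in WT and 0.0972 for PCN in Pxr-/- mice. Pair correlations used Python 3.11.15 with 100000 permutations within groups. Each of the 10 members is named whatever it showed. The second list is named where called, and the rest of it as counts, while Ciart, Cry2, Cry1, Nfil3 and Bhlhe41 were chosen after their values were seen. The 3 genes most like Arntl and Dbp were those with the highest r. The members and all lists were chosen with earlier results of these data known. Alternatives were scanner-based normalizations, normexp (offset 50), slide and batch terms, filters, replicate block, single batches and leaving out each array. Probe positions are on mm9, and exon or intron placement was not analysed here. Promoters are RefSeq windows on GRCm38.p6.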

Additional observations from a re-analysis of the deposited data

Results flagged for a closer look

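Of 40 groups of values (10 clock genes in 4 groups), 2 held a mouse far from the others by Dixon's criterion, which chance gives in about 1 of 20 groups. Both were for Per2. WT CONT replicate 4 had a log2 value of 9.35 beside a group median of 10.82, with a gap of 0.696 of the group's range. Pxr-/- PCN replicate 1 had 10.27 beside a median of 11.11, with a gap of 0.689 of the range.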

How the results depend on the processing

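The count of members called for PCN in Pxr-/- mice was 3 under each scanner-based normalization, without the batch term, with slide as a block and with the replicate block. It was 4 with only the groups of the contrast, with no fold threshold and with any probe of the gene, and 0 within wash batch 1 and 0 within batch 2, where 3 mice per group remained. Leaving out single arrays gave 1 (without Pxr-/- CONT replicate 6) to 5 (without Pxr-/- PCN replicate 3). For the averaged effect the count was 1, 4 with no fold threshold, 0 within each batch, and 0 to 1 when single arrays were left out. For the genotypes under PCN it was 1, 0 with slide as a fixed block, 0 within each batch, and 0 to 2 with single arrays left out. The counts of 0 for PCN in WT, for the interaction and for the genotypes without PCN were 0 under all alternatives run. Correlated pairs were 21, 20 on scanner values and 0 within each batch of 11 or 12 mice. Within a batch, groups of 2 or 3 mice allow too few permutations for that 0 to decide anything.

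With the replicate block the members called were 0 for PCN in WT, 3 for PCN in Pxr-/- mice, 1 for the averaged effect and 1 under PCN, and it changed no call. The replicate numbers did not pair the samples (6 of 33 same-numbered pairs correlated over 0.1, range -0.206 to 0.429).

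Reversed signs were confined, among the member changes printed, to values that were not called. Clock in WT was -0.047 with slide as a fixed block, -0.012 with the replicate block and -0.00025 within batch 2. Per2 in WT was -0.0064 and the interaction of Per1 was 0.14 within batch 1. Within batch 2, Per1 in Pxr-/- mice was -0.15, and the interactions of Npas2, Per2 and Nr1d1 were 0.27, -0.14 and -0.16. With single arrays left out, Arntl in WT ran from -0.30 to 0.00065, Clock in WT from -0.040 to 0.071, Per2 in WT from -0.11 to 0.33, Per1 in Pxr-/- mice from -0.039 to 0.28, Nr1d1 in Pxr-/- mice from -0.21 to 0.016, and the interaction of Npas2 from -0.29 to 0.0061. The cause was not tested. The number of arrays limits what small changes could be seen.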
